A study of Mus musculus with 10 samples.

Results

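The enzymes described here are the 8 genes of the pentose phosphate pathway, chosen by symbol: G6pdx, H6pd, Pgls, Pgd, Rpia, Rpe, Tkt and Taldo1. All 8 were among the 17493 genes of the deposited table, and all 8 passed the filter on low values that left 12535 genes for testing. Expression was measured by RNA sequencing in Th17 cells, helper T cells that make IL-17, grown from naive CD4+ splenocytes of C57BL/6 mice. The cells had been stimulated on plates coated with antibodies to CD3 and CD28, and had received 20 ng/mL of IL-6 beside 2.5 ng/mL of TGF-beta during 48 to 72 h of culture. The 2 groups of 2 libraries were cells given TMP269, an inhibitor of the class IIa histone deacetylases, and control cells named for the solvent DMSO. The labels state no change of genotype for either group, and the table names the controls WT. Neither the age of the mice nor the dose and duration of TMP269 is stated there. The other 6 samples of the series, chromatin immunoprecipitations of HDAC4 and HDAC7 with their inputs, were not analysed here.

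The pentose phosphate pathway branches from glycolysis at glucose 6-phosphate. Its oxidative arm removes a carbon as carbon dioxide and reduces NADP+ to NADPH, the reductant of lipid, proline and deoxynucleotide synthesis and of glutathione and thioredoxin recycling. Its non-oxidative arm moves carbon between sugar phosphates, supplying ribose 5-phosphate for nucleotides and returning the rest to glycolysis as fructose 6-phosphate and glyceraldehyde 3-phosphate. Activated T cells draw on both arms as they grow and divide.

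The control columns and the TMP269 columns held 20007042 to 25321455 reads each. Levels are given as normalised reads, a library's read count for the gene divided by that library's size factor, and fold changes are on the log2(normalised reads + 1) scale. Ribosomal RNA (Rn45s) took 2.20% of reads in DMSO replicate 2, against 0.716% to 1.12% in the other libraries. The T cell genes Cd3d, Cd3e, Cd3g and Cd4 were present at 2679 to 9479 normalised reads per library and none of these 4 passed the test, whereas Il17a, Il17f and Ccr6 fell. B cell transcripts moved with the groups: the 8 B cell markers summed to 4605 and 4694 normalised reads in DMSO and to 2654 and 2668 with TMP269, 6 of the 8 fell (4 without TMP269 replicate 1), and none was at 0. The 8 myeloid markers in the table summed to 139 to 162 normalised reads in DMSO and 365 to 421 with TMP269. Of the 4 that could be tested, Cd68 and Clec7a rose, while the defining marker Lyz2 was listed at 1.80 to 14.2. Of 6 CD8 T and NK cell markers, 3 could be tested and Klrk1 fell, with sums of 385 and 504 normalised reads in DMSO and 342 and 458 with TMP269. The 2 erythroid markers in the table summed to 3.60 to 12.3. The part of these other cells in the results below was not tested, and in bulk RNA fewer cells of a type cannot be told apart from less RNA per cell.

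To show where transcription of these genes starts, 4 promoters are printed from the RefSeq promoter table (build GRCm38.p6), each from 250 bases before to 50 bases after the start site. They are G6pdx, the entry to the pathway, Tkt, which fell furthest, Taldo1, its partner enzyme, and Rpe, which did not pass the test. Capitals mark the antioxidant response core, TGANNNNGC, and the hypoxia core, ACGTG, on either strand.
G6pdx, chrX:74428831-74429130, minus strand: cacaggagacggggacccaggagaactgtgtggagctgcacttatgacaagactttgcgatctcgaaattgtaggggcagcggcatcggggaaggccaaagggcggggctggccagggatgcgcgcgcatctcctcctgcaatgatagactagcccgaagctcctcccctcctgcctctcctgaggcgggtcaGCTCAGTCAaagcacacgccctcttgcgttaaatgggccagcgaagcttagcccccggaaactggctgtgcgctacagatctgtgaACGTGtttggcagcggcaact
Tkt, chr14:30548881-30549180, plus strand: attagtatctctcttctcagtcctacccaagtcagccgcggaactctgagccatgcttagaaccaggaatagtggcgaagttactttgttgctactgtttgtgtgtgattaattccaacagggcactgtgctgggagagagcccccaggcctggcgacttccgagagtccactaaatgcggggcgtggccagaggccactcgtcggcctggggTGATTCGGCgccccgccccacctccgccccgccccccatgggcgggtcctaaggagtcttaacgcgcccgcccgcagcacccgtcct
Taldo1, chr7:141391910-141392209, plus strand: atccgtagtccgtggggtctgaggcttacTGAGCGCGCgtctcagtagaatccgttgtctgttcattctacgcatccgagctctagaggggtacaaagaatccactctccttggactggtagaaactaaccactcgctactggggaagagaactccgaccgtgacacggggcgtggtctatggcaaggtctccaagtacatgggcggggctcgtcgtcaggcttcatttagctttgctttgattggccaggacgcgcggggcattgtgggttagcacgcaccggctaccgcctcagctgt
Rpe, chr1:66700581-66700880, plus strand: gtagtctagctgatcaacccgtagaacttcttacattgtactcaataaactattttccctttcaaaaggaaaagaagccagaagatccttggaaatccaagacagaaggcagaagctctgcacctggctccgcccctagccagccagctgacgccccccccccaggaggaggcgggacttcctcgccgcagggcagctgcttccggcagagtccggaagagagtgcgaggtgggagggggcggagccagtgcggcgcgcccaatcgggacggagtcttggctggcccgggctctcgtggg
The antioxidant response core, the letters recognised by NRF2 with small MAF proteins, was found in 4 of the 8 genes, against 41.4% of 32841 windows of the same length. For every motif the members are counted by gene and the background by window, and the 8 genes have 9 windows. In G6pdx the match TGACTGAGC read on the opposite strand, and its leftmost base in the printed sequence lay 57 bases before the start. In Tkt the match TGATTCGGC began 37 bases before the start, and in Taldo1 TGAGCGCGC began 221 bases before it. The fourth match, TGACATTGC, lay in the second of the 2 windows listed for Pgd. The GC box GGGCGG was in 7 of the 8 genes, against 35.7% of all windows, and occurred 5 times around the Tkt start. The windows that held it were 56.7% to 67.3% G and C, against a median of 52.7% over all windows. They had 17 to 32 CG pairs, against a median of 7, and the shares were not corrected for base composition. The hypoxia core, which overlaps the E-box CACGTG, was in G6pdx only among the 8, against 19.6% of all windows. Neither the E-box (7.15% of all windows) nor a site for MEF2 (3.19%), a DNA-binding partner of class IIa histone deacetylases, was found in any of the 8 genes. The window listed for H6pd lay inside the span of its gene and may mark an alternative start. It was 39.3% G and C and held no match to any of these motifs. Both strands were searched for every motif, and a match of letters does not show binding.

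The question put to these genes was whether inhibition of class IIa histone deacetylases changed their transcripts. With TMP269, 5 of the 8 enzyme genes fell (G6pdx, Pgls, Pgd, Tkt and Taldo1), 0 rose, and 3 did not pass the test (H6pd, Rpia and Rpe). Of all 12535 tested genes, 14.7% were called lower, 12.8% higher and 27.5% in either direction (limma, Benjamini-Hochberg adjusted p under 0.05). The median log2 fold change of the 8 genes was -0.29, beside 0.00 for all tested genes, a baseline that depends on the scaling. Single genes ranged from -0.61 for Tkt to -0.18 for Rpe. Both TMP269 libraries lay below both DMSO libraries in 7 of the 8 genes, Rpe being the exception, whereas 34% of all tested genes had this order. The 8 genes together took 0.130% and 0.122% of all reads in DMSO and 0.0987% and 0.0958% with TMP269. Most of that sum was Tkt and Taldo1, with 0.0755% and 0.0703% in DMSO and 0.0540% and 0.0541% with TMP269. Rpia and Rpe together took 0.0121% and 0.0126% in DMSO and 0.0114% and 0.0115% with TMP269.

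Fewer of all tested genes were called lower in each setting named below, with 8.31% in place of 14.7% at equal library totals. The call count of the enzymes moved with single libraries and with the scaling. It was 3 of 8 without DMSO replicate 2, without TMP269 replicate 1 or without TMP269 replicate 2, and 3 of 8 with equal library totals, where the median of all genes moved by 0.10 and 67.3% of calls were higher in place of 46.5%. In each of these settings the 3 genes that remained called were G6pdx, Pgd and Tkt.

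**Figure D1:**
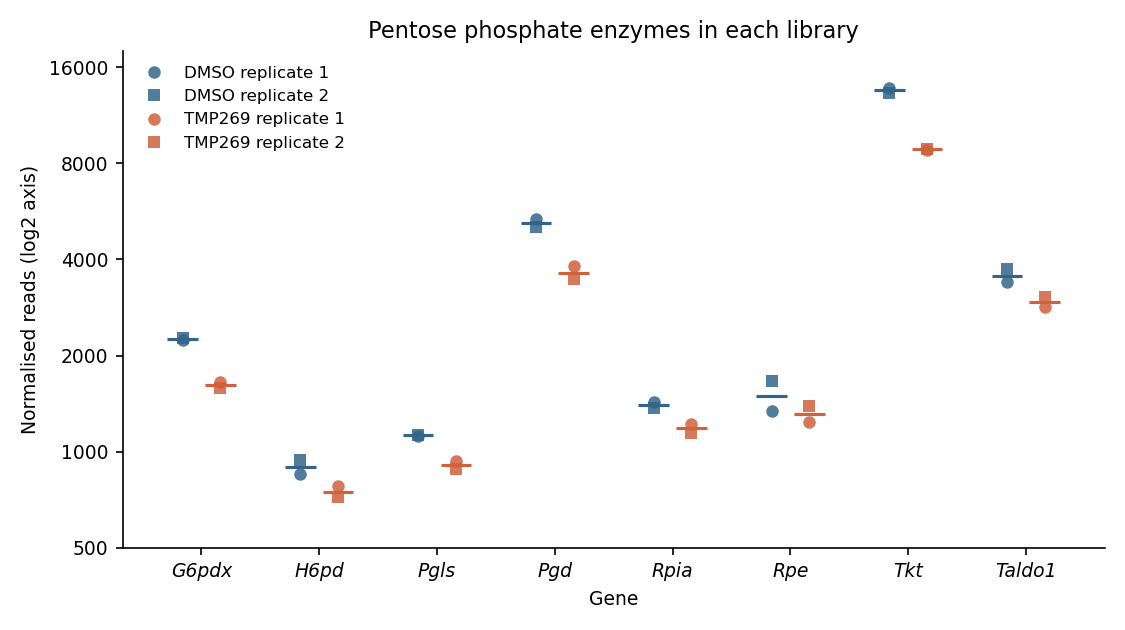
Normalised reads (log2 axis) of the 8 pentose phosphate enzyme genes in each of the 4 libraries, with circles for replicate 1, squares for replicate 2 and a line at each group mean. The TMP269 points lie below the DMSO points for every gene but Rpe, where TMP269 replicate 2 (1390) is above DMSO replicate 1 (1336).

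G6pdx encodes glucose 6-phosphate dehydrogenase, the rate-limiting enzyme that commits glucose 6-phosphate to the pathway and makes the first NADPH. It stood at 2245 and 2263 normalised reads in the DMSO libraries and at 1653 and 1586 with TMP269. The control libraries were nearly equal and both treated libraries were well below them. The mean fell by 28.1%, or by 0.48 ± 0.08 (SE) on the log2 scale, and limma gave an adjusted p of 0.00328. The call held in all 13 alternative settings, with log2 fold changes from -0.51 to -0.37. Its near-copy G6pd2 was not analysed here, so reads shared with that retrogene are uncertain.

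Pgls encodes 6-phosphogluconolactonase, which opens the lactone that the first step leaves. Its values were 1121 and 1128 normalised reads in DMSO and 937 and 880 with TMP269. The groups did not overlap, but the gap was small beside those of the other cytosolic oxidative genes. Its log2 fold change was -0.31 ± 0.09 (SE; limma gave an adjusted p of 0.0295), the mean going from 1124 ± 4.68 to 909 ± 40.3 (SD, n = 2). This call did not survive the loss of any 1 of the 4 libraries (limma adjusted p from 0.0633 to 0.172). It was also lost in DESeq2 (0.0702) and with equal library totals (0.127).

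Pgd encodes 6-phosphogluconate dehydrogenase, which makes the second NADPH and releases carbon dioxide and ribulose 5-phosphate. It was at 5365 and 5045 normalised reads in DMSO and at 3801 and 3477 with TMP269. Both treated libraries were clearly lower than either control. The mean fell by 30.1%, or by 0.52 ± 0.08 (SE) on the log2 scale (adjusted p = 0.00311 in limma), and the call held in all 13 alternative settings. The ratio of Pgd to G6pdx reads, which does not depend on the scaling of a library, was 2.39 and 2.23 in DMSO and 2.30 and 2.19 with TMP269, so the groups overlapped. The ratio of Pgd to Pgls reads went from 4.79 and 4.47 to 4.05 and 3.95, without overlap.

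H6pd encodes the dehydrogenase of the endoplasmic reticulum, a single protein that carries out the first and second steps of the pathway and supplies NADPH inside that compartment. It was at 851 and 941 normalised reads in DMSO and at 780 and 719 with TMP269. The groups did not overlap, but the DMSO libraries differed from each other by more than the gap between the nearest treated and control library. The log2 fold change was -0.26 with a 95% interval from -0.48 to -0.03, and the gene was not called (limma adjusted p = 0.0847). The ratio of G6pdx to H6pd reads was 2.64 and 2.41 in DMSO and 2.12 and 2.21 with TMP269. An exact permutation test of 2 against 2 libraries cannot give a two-sided p below 0.333, the value for each ratio whose groups do not overlap.

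Rpia and Rpe act on the product of the oxidative arm. Rpia encodes ribose 5-phosphate isomerase, which forms the ribose 5-phosphate of nucleotides, and it was at 1431 and 1375 normalised reads in DMSO and 1221 and 1148 with TMP269. The treated libraries were both lower, by a smaller step than for G6pdx. Its log2 fold change was -0.24 with a 95% interval from -0.43 to -0.05, and it missed the threshold (limma adjusted p = 0.0586). Rpe encodes ribulose 5-phosphate 3-epimerase, which forms xylulose 5-phosphate, and it was at 1336 and 1662 normalised reads in DMSO and 1238 and 1390 with TMP269. These groups overlapped, and replicate 2 was the higher library in both. Its log2 fold change was -0.18 with a 95% interval from -0.45 to 0.08 (limma adjusted p = 0.264), and without DMSO replicate 1 it was called (-0.34, limma adjusted p = 0.0436).

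Tkt encodes transketolase, the thiamine-dependent enzyme that moves carbon pairs between sugar phosphates and links the pathway back to glycolysis. It was at 13805 and 13241 normalised reads in DMSO and at 8808 and 8895 with TMP269. The pairs were tight and far apart. The mean fell by 34.5%, or by 0.61 ± 0.08 (SE) on the log2 scale (adjusted p = 0.00150 in limma), and 5.03% of tested genes had a change as low or lower. The call held in all 13 alternative settings, with log2 fold changes from -0.64 to -0.51.

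Taldo1 encodes transaldolase, which works beside transketolase and moves dihydroxyacetone units. It was at 3393 and 3725 normalised reads in DMSO and at 2828 and 3057 with TMP269. The groups did not overlap, and the DMSO libraries lay about as far from each other as from the nearest treated library. The mean fell by 17.3%, or by 0.27 ± 0.08 (SE) on the log2 scale (adjusted p = 0.0410 in limma). Leaving out DMSO replicate 2 ended the call at an adjusted p of 0.190 in limma, and leaving out TMP269 replicate 1 or 2 ended it at 0.254 or 0.0570. The call also ended without the filter on low values (0.0584) and with equal library totals (0.116).

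Within each library's own reads, Tkt was lower relative to Taldo1 with TMP269. The ratio of Tkt to Taldo1 reads was 4.07 and 3.56 in DMSO and 3.11 and 2.91 with TMP269, a ratio of means of 0.790, with no overlap between groups (exact permutation p = 0.333, the smallest possible). The ratio of Tkt to Rpia reads went from 9.65 and 9.63 to 7.22 and 7.75, also without overlap. The ratio of Pgd to Tkt reads was 0.389 and 0.381 in DMSO and 0.431 and 0.391 with TMP269, where the nearest libraries differed little. Such ratios are reads per gene, uncorrected for length, and say nothing of which enzyme is more abundant. Levels were not ranked between genes, since transcript lengths were not used here.

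**Figure D2:**
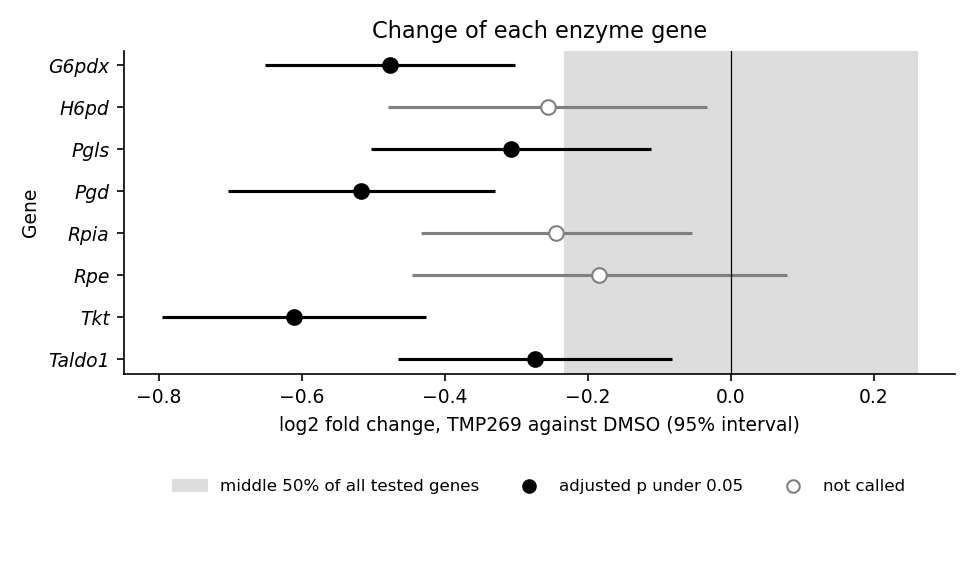
log2 fold change of each enzyme gene (TMP269 against DMSO, 2 libraries per group) with its 95% interval from the limma fit. Filled points passed the test, and the grey band holds the middle 50% of all tested genes, from -0.23 to 0.26. G6pdx, Pgd and Tkt lie below the band with their whole intervals, and the intervals of the other 5 genes reach into it.

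The depth behind these values was high. The lowest read count behind any value of the 8 genes was 755, for H6pd, which carries a counting error of 3.64%, and the highest was 15343, for Tkt. Between replicates the largest ratio was 1.24, for Rpe in DMSO. Over all genes, replicates differed by more than counting error, with a chi-square per degree of freedom of 17.9 in DMSO and 9.37 with TMP269.

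**Figure D3:**
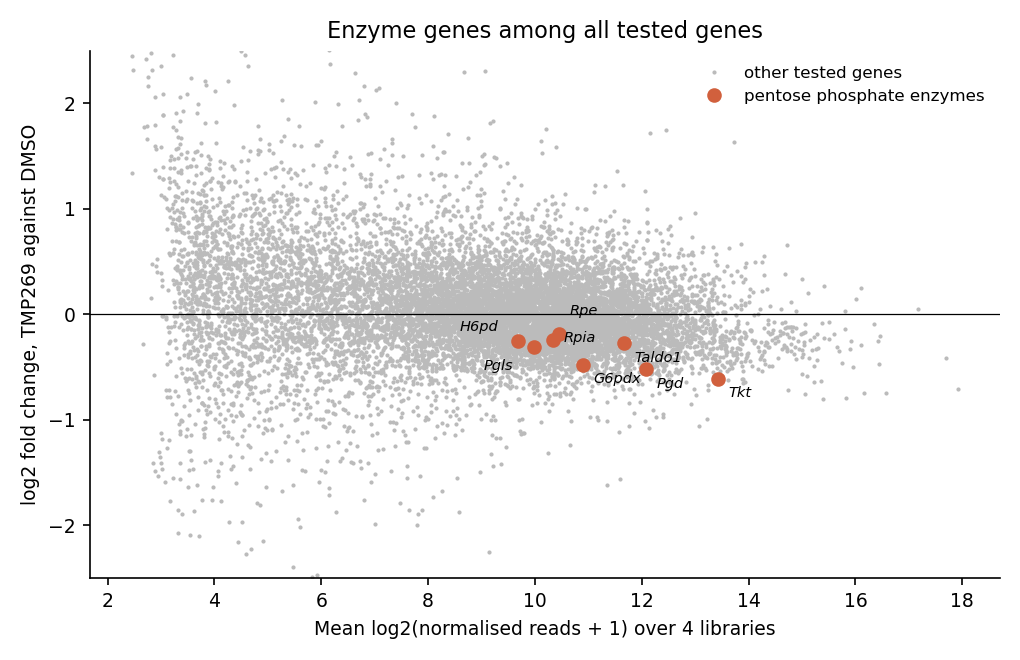
log2 fold change of every tested gene (grey) against its mean level on the log2(normalised reads + 1) scale, with the 8 enzyme genes in orange. All 8 lie below 0, and 27 genes beyond 2.5 in either direction fall outside the plot.

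Genes around the pathway were read from 6 lists. The counts of calls in each stand beside 12.8% of all tested genes called higher and 14.7% called lower. Among paralogs and side reactions of the pathway, 0 of 10 tested members rose and 2 fell, with a median log2 fold change of -0.18 (4 fell without DMSO replicate 1 and 1 without DMSO replicate 2, with medians of -0.28 and -0.06, and the median was -0.08 with equal library totals). The 2 that fell encode ribose-phosphate pyrophosphokinases, which use ribose 5-phosphate to make PRPP. Prps1 went from 4430 and 5151 normalised reads to 3100 and 3452 (log2 fold change -0.55 ± 0.10, SE, adjusted p = 0.00480 in limma), and Prps1l3 fell by 24.3% (adjusted p = 0.0952 in limma without DMSO replicate 2). Their reads may be shared, since the copies are closely alike. The transketolase-like gene Tktl1 was at 0 to 2.07 normalised reads, too low to test. Shpk, which makes sedoheptulose 7-phosphate, was at 63.0 and 54.3 in DMSO and 91.0 and 88.3 with TMP269 (limma adjusted p = 0.0589). Tigar, a fructose bisphosphatase that favours the pathway, had a log2 fold change of -0.11 (limma adjusted p = 0.375). Shpk and Tigar were singled out after their values were seen.

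Most genes that supply glucose 6-phosphate or share the pathway's products fell. Of 16 members, 14 fell and 2 rose, with a median log2 fold change of -0.59. The fall of glycolytic genes in these libraries was known when the list was drawn up, so the count is no independent support. Slc2a3, a glucose transporter, went from 5546 and 5087 normalised reads to 1597 and 2037, and Aldoc, an aldolase, from 1699 and 1672 to 824 and 959 (limma adjusted p = 0.000542). The 2 that rose were low: Hk3, a hexokinase, went from 29.7 and 20.5 to 96.1 and 79.8, and Hsd11b1, a reductase that uses NADPH made by H6pd, from 24.3 and 18.1 to 46.5 and 105 (adjusted p = 0.0905 in limma without TMP269 replicate 2). Steps around H6pd were also picked out after their values were seen. Slc37a4, which carries glucose 6-phosphate into the endoplasmic reticulum, fell by 37.5%, and G6pc3, which hydrolyses it there, fell by 38.4%.

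**Figure D4:**
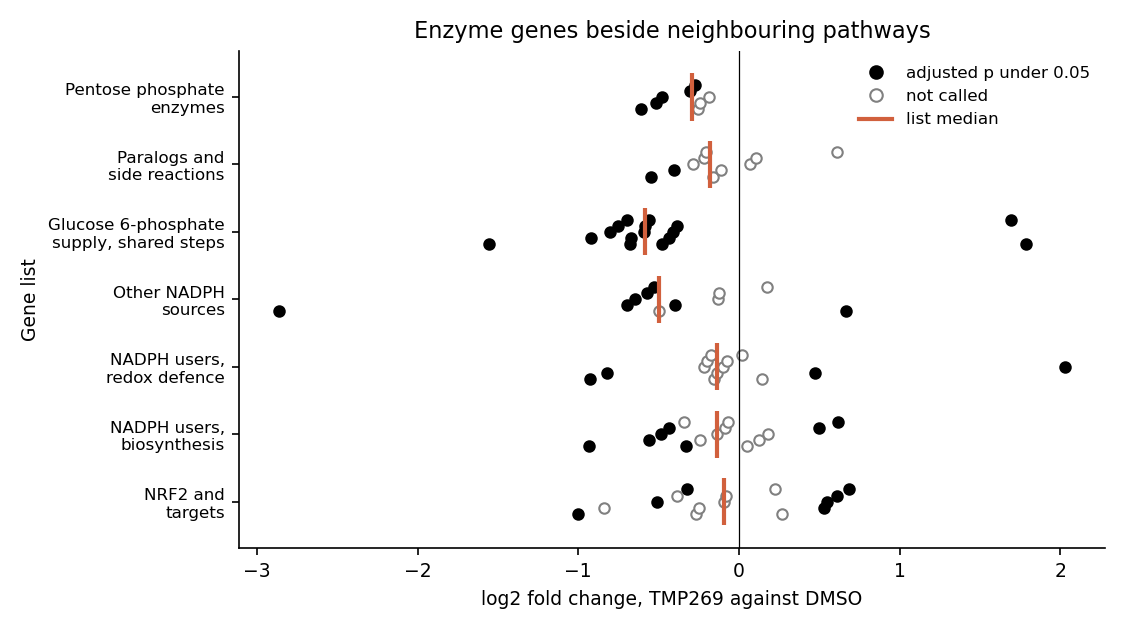
log2 fold change of each tested gene in the enzyme list and the 6 neighbouring lists, filled where adjusted p was under 0.05, with a bar at each list's median. The medians run from -0.59 for glucose 6-phosphate supply to -0.09 for NRF2 and its targets, and the enzymes' median is -0.29.

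Genes listed as other sources of NADPH gave a median log2 fold change of -0.50. Of 11 tested members, 6 were lower and 1 higher, against 14.7% and 12.8% of all tested genes. The list was drawn up without regard to the main cofactor. Me2 and Mthfd2 work mainly with NAD+, and Nadk and Nadk2 are NAD kinases, so the counts do not stand for NADPH-producing enzymes alone. Beside Me2 and Mthfd2, the members that fell were Mthfd1 (log2 fold change -0.53), Idh2 (-0.40), Nadk2 (-0.70) and Aldh1l2 (-2.87). Aldh1l2 was low, at 77.4 and 62.7 normalised reads in DMSO and 5.17 and 14.2 with TMP269. Idh1, Nnt, Mthfd2l and Nadk did not pass the test. Me2, a mitochondrial malic enzyme, went from 6818 and 7193 normalised reads to 4253 and 4704, and Mthfd2, a mitochondrial folate dehydrogenase, from 3485 and 3617 to 2300 and 2486. Both had treated libraries far below the controls. Aldh1l1, a folate dehydrogenase of the cytosol, rose 1.59-fold from 63.9 and 55.5 (limma adjusted p = 0.0418, with 0.161 in DESeq2, 0.156 without DMSO replicate 2, and 0.202 and 0.0986 without TMP269 replicates 1 and 2). The cytosolic malic enzyme gene Me1 was at 1.21 to 11.7 normalised reads and was not tested.

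Among users of NADPH in redox defence, 2 of 13 tested members rose, 2 fell and 9 did not pass, shares near the 12.8% higher and 14.7% lower of all tested genes. Their median log2 fold change was -0.14 (-0.07 without DMSO replicate 2 and -0.03 with equal library totals). Nqo1, a quinone reductase, went from 22.5 and 14.5 normalised reads to 59.9 and 98.8, and Ncf4, a subunit of the phagocyte oxidase, rose 1.39-fold. Cybb, the catalytic subunit of that oxidase, which B cells also express, went from 367 and 359 to 189 and 192, and Txnrd3, a thioredoxin reductase, fell by 43.5% (adjusted p = 0.0735 in limma without TMP269 replicate 2). Without DMSO replicate 1, 4 members fell, and without TMP269 replicate 2, 1 fell. Gsr, which recycles glutathione, had a log2 fold change of -0.21 (limma adjusted p = 0.152). In biosynthesis, 2 of 15 members rose, 5 fell and 8 did not pass, with a median of -0.14 (-0.03 with equal library totals). Fasn, fatty acid synthase, rose 1.41-fold from 16565 and 13364 normalised reads to 22811 and 19362, and Kdsr, a reductase of sphingolipid synthesis, rose 1.53-fold. The Fasn call was lost without DMSO replicate 2 (adjusted p = 0.0972 in limma) or TMP269 replicate 1 (0.106). Without those libraries 1 member rose each time, and 3 and 2 fell. Aldh18a1, the first enzyme of proline synthesis, fell by 32.1% and Tecr, a reductase of fatty acid elongation, fell by 25.9%.

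NRF2, the factor that recognises the antioxidant response core, is known to activate several genes of the pathway. Its gene Nfe2l2 was at 998 and 1139 normalised reads in DMSO and 1195 and 1381 with TMP269 (log2 fold change 0.27 ± 0.11, SE, adjusted p = 0.0895 in limma). Of the 15 tested genes for NRF2 and its targets outside the pathway, 4 rose, 3 fell and 8 did not pass. This list does not hold every known target: Nqo1, which rose, Txnrd1 and Gsr were counted among users of NADPH in redox defence. Over all tested genes, 12.8% were called higher and 14.7% lower. The median log2 fold change of the list was -0.09, with single genes from -0.999 to 0.69. The median was 0.01 with equal library totals, -0.16 without DMSO replicate 1, and -0.17 and -0.21 without TMP269 replicates 1 and 2. The count that fell was 2, 1, 1 and 3 without DMSO replicates 1 and 2 and TMP269 replicates 1 and 2. Maff, a small MAF partner, rose 1.61-fold and Sqstm1, an autophagy receptor, 1.45-fold. Txn1, thioredoxin, fell by 29.8%, and Fth1, ferritin heavy chain, fell by 20.1%. Without TMP269 replicate 1 neither passed (adjusted p = 0.0530 and 0.265 in limma), and Fth1 was also lost without DMSO replicate 1 (0.0516) or 2 (0.0631).

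Likeness to the 5 enzyme genes that fell was measured as Euclidean distance, over the 4 libraries, between log2 values centred on each gene's mean. The nearest 5 genes were Gemin4 (distance 0.00933), Slc25a39 (0.0109), H2-Ke2 (0.0191), Cox5b (0.0210) and Ccdc85b (0.0233). Among the members themselves the distance to their mean profile ran from 0.0453 for G6pdx to 0.214 for Taldo1, and 1470 other named genes were as near as Taldo1. Gemin4, for example, was at 1582 and 1584 normalised reads in DMSO and 1178 and 1147 with TMP269. The Ccdc85b call was lost without DMSO replicate 2 (adjusted p = 0.0608 in limma). With 4 libraries the profile is shared by many genes and singles out none of them.

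**Figure D5:**
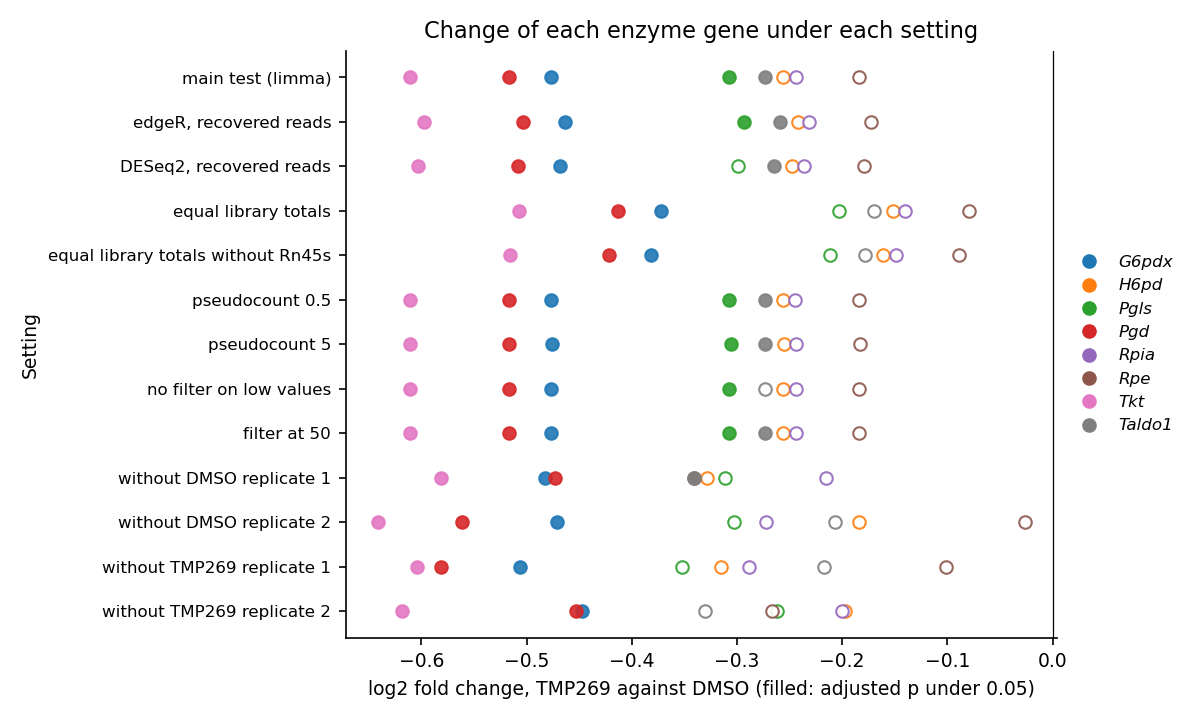
log2 fold change of each enzyme gene under the main test and 12 alternative settings, filled where adjusted p was under 0.05. All values lie below 0. Tkt, Pgd and G6pdx are filled in every setting drawn, Pgls and Taldo1 in some, Rpe without DMSO replicate 1 only, and H6pd and Rpia in none. The replicate block, described in the closing section, is not drawn.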

How the data were processed

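RNA sequencing of 4 libraries was analysed. The deposited values are a normalised signal: read counts per gene divided by 1 size factor per library. Multiplying by that factor (1.11 and 0.829 for DMSO replicates 1 and 2, 0.967 and 1.05 for TMP269) returned whole reads for 100% of values (tolerance 1e-06). Per the submitters' processing notes, which give no roles, build mm9 was used with TopHat2 2.1.0, Bowtie2, HTSeq, DESeq2 and CASAVA 1.4. The annotation and strand setting are not stated, so overlapping genes and near-copies are uncertain.

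Genes that reached a value of 10 in 2 or more libraries were tested on log2(value + 1), which understates changes of low genes, with limma 3.58.1 in R 4.3.3 (empirical Bayes with trend). All tests were two-sided, and p-values were adjusted over all 12535 genes. Recovered reads were tested with edgeR 4.0.16, which called 3406 genes (1656 higher and 1750 lower), and DESeq2 1.42.0. The test was checked on simulated data, with 200 of 12535 genes changed and a single dispersion for all genes. It recovered 10.8% of 1.25-fold changes, 69.7% of 1.5-fold and 78.9% of 2-fold, and 6.60% of its calls were false. The labels do not say that replicates came from separate animals or cultures, so the p-values rest on a spread that may be technical. Members and lists were chosen with earlier results of these data known. Named genes were all 8 enzymes, up to 2 called members per direction and list, and the 5 nearest profiles. The remaining members of the list of other NADPH sources, and some single genes of other lists, were named outside this rule. Alternatives were other tests, scalings, pseudocounts (0.5 and 5), filters, the replicate number as a block and each library left out; with 1 left out, the lone library is assumed to vary like the others. Levels per coding length, planned, were not computed. RefSeq promoters (GRCm38.p6) matched all 8 genes, for H6pd with a window inside the span of its gene.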

Additional observations from a re-analysis of the deposited data

How the results depend on the processing

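All 104 values of the 8 enzyme genes under the 13 alternatives kept their direction. The call was lost in 13 of them, all for Pgls or Taldo1, and gained in 4, and those of G6pdx, Pgd and Tkt held throughout. With equal library totals the number of genes called lower was 1042, the enzymes called lower numbered 3 and their median log2 fold change was -0.19. With equal totals without Rn45s these were 1151, 3 and -0.20. The median of all tested genes was 0.10 and 0.09 under these scalings and 0.00 in the main test. Each scaling thus sets its own baseline. Leaving out 1 library gave 1040 to 1789 genes higher, 966 to 1823 lower, 3 to 5 enzymes lower and an enzyme median from -0.34 to -0.29. Genes called were fewest without DMSO replicate 2 (1040 higher and 966 lower), and 1132 were lower without TMP269 replicate 1. Samples with the same replicate number deviated together across genes (r = 0.371), but the labels give the numbers no meaning, and 2 pairs do not establish pairing. With the number as a replicate block, 3008 genes were called higher and 3352 lower, and all 8 enzymes were called lower. The causes were not tested. Each value of the enzyme genes rests on at least 755 reads.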
